A study of Mus musculus with 6 samples.

Results

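Liver messenger RNA was examined for 41 genes of the peroxisome, taken by symbol from a table of 15960 genes: 28 enzymes, transporters and membrane carriers, and 13 Pex genes, which encode the factors that build the organelle. All 41 had a row in the table. A total of 39 reached 1 FPKM (sequenced fragments relative to the length of the transcript and the size of the library) in at least 3 of the 6 samples and were tested; Abcd2 and Far1 did not. The genes were chosen by their known roles, but with earlier results of these data known.

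The samples were livers of C57BL/6 mice aged 22 weeks, 3 of genotype Cyp2e1-/- (knockout) and 3 of genotype Cyp2e1+/+ (wild type). Both genotypes had eaten a high-fat diet for 14 weeks, so every value below is from high-fat feeding, and a normal-diet group was not analysed here. CYP2E1 is a hepatocyte enzyme of the cytochrome P450 family that oxidizes ethanol, acetone and other small compounds, and the study is titled as one of its crosstalk with PPARα, a nuclear receptor for fatty acids. The labels do not describe the Cyp2e1 allele, name the sex or say that each library came from a separate animal, so p-values here reflect only how much these samples vary, which may be technical.

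Peroxisomes shorten fatty acids that mitochondria handle poorly: very long chains, branched chains, dicarboxylic acids and the side chains of bile acid precursors. Shortened acyl groups leave as carnitine esters for the mitochondria, and the organelle also begins ether lipid synthesis. In mouse liver many genes of its beta-oxidation, and Pex11a, are long-known targets of PPARα, and drugs that activate this receptor multiply peroxisomes in rodents.

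Cyp2e1 was measured first, as a check of the genotype labels. It was at 254, 247 and 271 FPKM in knockout replicates 1, 2 and 3, an order kept for all values by library, and at 7427, 5942 and 6071 in wild type. The log2 fold change, which compares knockout with wild type on log2(FPKM + 1), was -4.64 with an SE of 0.13 (adjusted p = 6.7e-08 by limma). The libraries matched their labels. The hepatocyte markers (8 of 8 tested; none called by limma, 2 with an unadjusted p under 0.05) ranged in sum from 48856 to 56349 FPKM over knockout libraries and from 45213 to 52277 over wild type libraries. The libraries held 9628 to 9963 genes at 1 FPKM or more. The table holds no counts; steps in its low values put the depth near 10.8 M fragments in knockout replicate 1 and at 8.05 to 8.59 M in the others.

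Together the 41 genes took 1.01% of all FPKM in knockout replicate 1, 1.17% in replicate 2 and 1.19% in replicate 3. In wild type they took 1.04%, 1.07% and 1.08%. Knockout replicate 1 thus had the lowest share of all 6 samples and the other knockout libraries the highest shares. By mean over the 6 samples the genes ran from 0.475 FPKM (Far1) to 1565 FPKM (Scp2). The next most abundant were Phyh at 1329 FPKM and Acaa1b at 654 FPKM.

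With all 6 samples, none of the 26 tested enzymes and carriers and none of the 13 Pex genes passed the test (limma, Benjamini-Hochberg over 9968 genes, adjusted p under 0.05). Over all tested genes the share that passed was 0.762%. At an unadjusted p under 0.05, 3 members were past the threshold, all with higher means in the knockout (Hacl1, Pex11g and Crat), where 9.93% of all genes were. The lowest adjusted p was 0.109, for Hacl1. The fold change was positive in 15 of 26 enzymes and carriers (57.7%; median 0.026) and in 9 of 13 Pex genes (69.2%; median 0.09), against 44.2% of all tested genes (median -0.028). These medians depended on single libraries. That of enzymes and carriers was 0.12, -0.017 and 0.041 when knockout replicate 1, 2 or 3 was left out, and 0.12, 0.0045 and 0.051 when wild type replicate 1, 2 or 3 was left out. That of Pex genes was 0.18, 0.049 and 0.061 on leaving out knockout replicate 1, 2 or 3, and 0.16, 0.056 and 0.053 on leaving out wild type replicate 1, 2 or 3. The 2 genotypes were without overlap in 6 members. Crat, Hacl1, Ephx2 and Pex11g lay higher in every knockout library, a pattern held by 5.32% of all genes. Crot and Phyh lay lower in every knockout library, a pattern held by 10.0% of all genes.

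**Figure D1:**
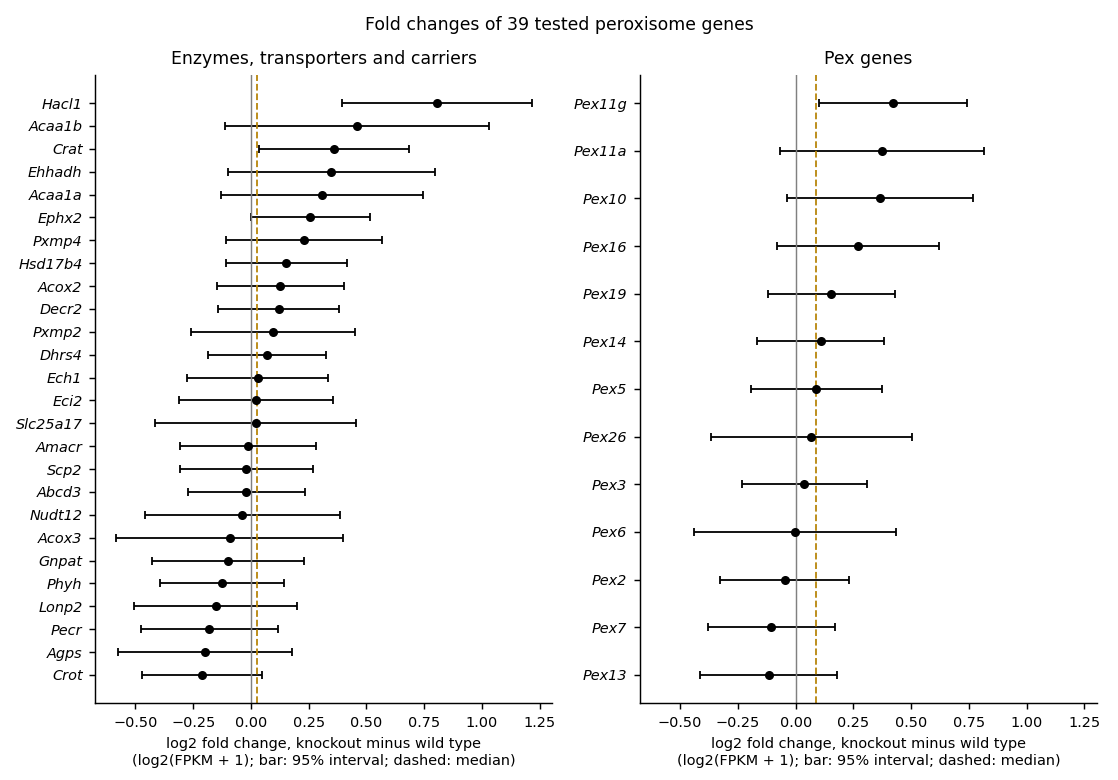
Log2 fold change (knockout minus wild type, log2(FPKM + 1)) of each tested peroxisome gene on the x axis, with bars for the 95% interval from limma and a dashed line at the median of each panel. Most intervals include 0; those of Hacl1 (0.39 to 1.22), Pex11g (0.10 to 0.74) and Crat (0.03 to 0.69) do not, before adjustment for 9968 genes.

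The entry and exit of fatty acids showed 2 carnitine acyltransferases on opposite sides. Crat, the carnitine acetyltransferase that exports acetyl groups, was at 12.4, 11.3 and 11.1 FPKM in the knockout and 10.1, 9.11 and 7.36 in wild type. Every knockout value was above every wild type value, but the difference did not pass (log2 fold change 0.36 with SE 0.15; adjusted p = 0.444 by limma). Crot, the carnitine octanoyltransferase for medium-chain products, was lower in every knockout library (99.9 ± 5.45 against 116 ± 9.19 FPKM; mean ± SD, n = 3 in each group, as in all values given this way) and did not pass either (log2 fold change -0.21 with SE 0.12; adjusted p = 0.607 by limma). Abcd3, the transporter for branched and dicarboxylic acyl groups, was nearly level at 98.1 ± 6.45 against 99.5 ± 5.15 FPKM. Abcd2, its relative for very long chains, was too low to test (0.36 to 1.07 FPKM over the 6 samples).

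The core of beta-oxidation held several members whose knockout libraries lay far apart. The sequences before the start sites of 3 of its genes are shown because results with and without replicate 1 turn on them. Acaa1a (chr9:119341028-119350296) and Acaa1b (chr9:119148043-119157093) encode 2 near-identical 3-ketoacyl-CoA thiolases, which carry out the last step of the cycle, and lie 183.9 kb apart on opposite strands. Ehhadh (chr16:21761285-21787834) encodes the bifunctional protein that does the middle steps for straight and dicarboxylic chains. The stretches are the 134 bases before a RefSeq transcript start in GRCm38.p6, free of annotated exons (that of Acaa1a lies inside the gene's outer bounds), read 5′ to 3′ on the gene's strand, with GC boxes (GGGCGG or its complement CCGCCC) and CCAAT boxes (CCAAT or ATTGG) in capitals.
Acaa1a (chr9:119341160-119341293, plus strand): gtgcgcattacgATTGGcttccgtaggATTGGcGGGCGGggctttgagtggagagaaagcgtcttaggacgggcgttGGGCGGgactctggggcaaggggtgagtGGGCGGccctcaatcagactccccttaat
Acaa1b (chr9:119157094-119157227, minus strand): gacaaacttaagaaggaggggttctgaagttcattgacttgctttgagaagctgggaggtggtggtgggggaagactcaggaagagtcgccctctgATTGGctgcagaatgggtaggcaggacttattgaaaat
Ehhadh (chr16:21787835-21787968, minus strand): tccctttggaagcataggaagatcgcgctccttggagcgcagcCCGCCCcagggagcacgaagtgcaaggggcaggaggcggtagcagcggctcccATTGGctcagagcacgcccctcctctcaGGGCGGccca
The thiolase genes, alike in their coding parts, are unlike here: 46.0% of the aligned columns were identical, Acaa1a had 3 GC boxes and Acaa1b had 0. Ehhadh had 2. The hexamer AGGTCA, the unit to which nuclear receptors of the PPAR kind bind, occurred in none of these 3 stretches on either strand.

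RefSeq promoter windows (250 bases before to 50 after a start) were found for 32 of the 41 genes, in 38 windows. The PPAR-type direct repeat AGGNCANAGGNCA, searched on both strands, was in 0 of the 38 windows and in 0.381% of all 32851. At so low a share, a count of 0 in 38 windows does not set the members apart from other genes. The single hexamer AGGTCA lay within the 250 bases before the start in 2 of 32 genes, Pex11g and Scp2 (6.25%, against 15.8% of all genes). The GC box was in 23 of 32 (71.9%, against 35.4%) and the CCAAT box in 15 of 32 (46.9%, against 37.5%). The shares of all genes cover every gene with a window, also those not expressed in liver, and no share was taken among tested genes. The differences are therefore not shown to be particular to peroxisome genes. These are counts of letters in short windows and not of bound sites.

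Acaa1b had the widest spread of the core genes. In the knockout it was at 449, 932 and 939 FPKM, and in wild type at 598, 505 and 501. Knockout replicate 1 was thus below all wild type libraries while the other 2 knockout libraries were far above them. The means, 773 ± 281 and 535 ± 54.8 FPKM, differed by 0.46 on the log2 scale (SE 0.26), which did not pass (limma, adjusted p = 0.611). Acaa1a followed the same order in the knockout, at 127, 159 and 175 FPKM, and stood at 167, 109 and 102 in wild type. Its groups overlapped through wild type replicate 1 (154 ± 24.2 against 126 ± 35.6 FPKM; log2 fold change 0.31 with SE 0.20; adjusted p = 0.674 by limma). Of the 31-base words of Acaa1b transcripts, 40.01% also occur in Acaa1a, so how the authors' counting treated shared fragments, which is not known here, could affect both. Their summed FPKM was 577, 1091 and 1114 FPKM in the knockout and 765, 615 and 602 in wild type. The ratio of Acaa1b to Acaa1a was lowest in replicate 1 of both genotypes, at 3.53 and 3.59, and 4.62 to 5.86 in the other 4 libraries.

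Ehhadh had 109, 181 and 184 FPKM in the knockout and 104, 128 and 132 in wild type. Replicate 1 was the lowest of its group in both genotypes, and the other knockout libraries lay above all wild type libraries (log2 fold change 0.35 with SE 0.20; adjusted p = 0.629 by limma). Hsd17b4, the second bifunctional protein, which serves branched chains and bile acid precursors, had 184, 214 and 219 FPKM in the knockout and 191, 183 and 180 in wild type. Again knockout replicate 1 lay within the wild type range (log2 fold change 0.15; limma, adjusted p = 0.743). Acox2, the acyl-CoA oxidase of bile acid intermediates, stood at 132 ± 13.1 against 120.5 ± 8.39 FPKM, and Acox3, an oxidase of branched chains, at 5.79 ± 1.89 against 6.13 ± 1.24. Scp2, whose long product is a thiolase for branched chains and whose short product carries sterols, was the most abundant member. It had 1431, 1614 and 1616 FPKM in the knockout and 1473, 1563 and 1692 in wild type, an overlap with almost equal means (log2 fold change -0.02 with SE 0.13; adjusted p = 0.985 by limma). A pseudogene, Scp2-ps2, holds 33.4% of its 31-base words.

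**Figure D2:**
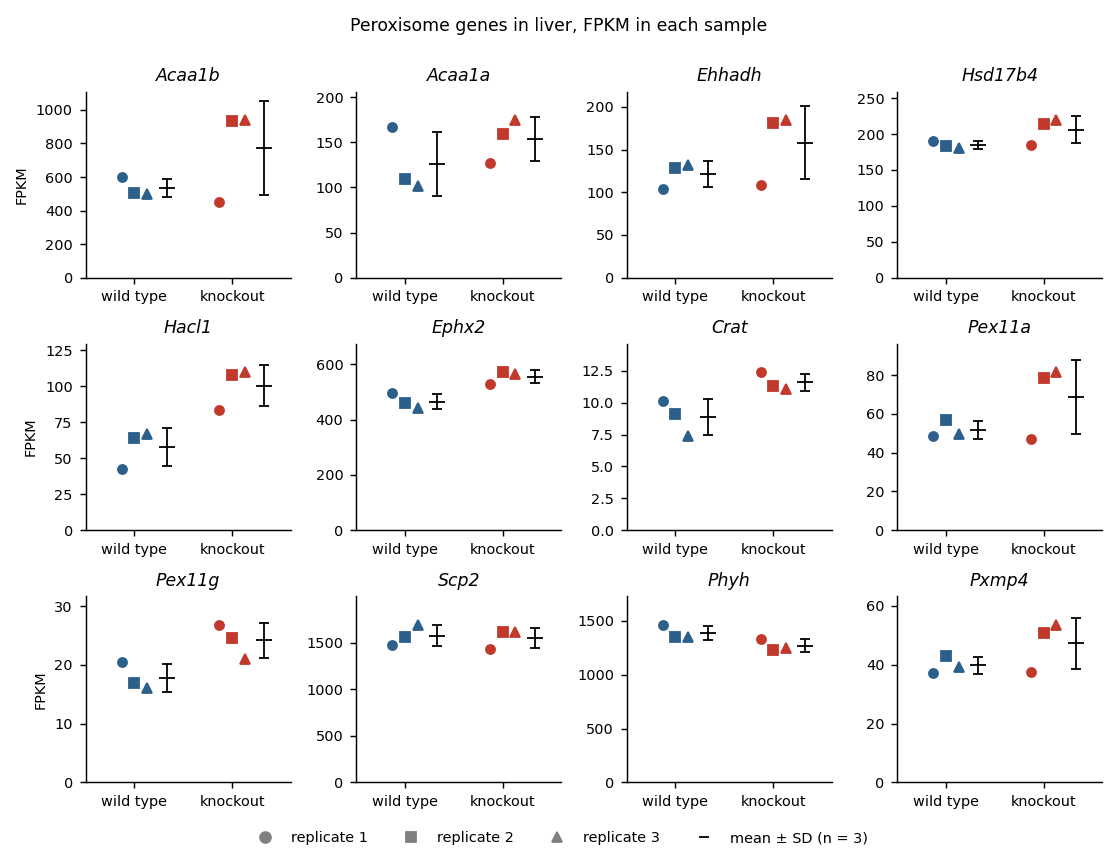
FPKM (y axis, from 0) of 12 peroxisome genes in each wild type and knockout library (x axis); circles, squares and triangles are replicates 1, 2 and 3, and bars are the mean ± SD (n = 3). In Acaa1b, Ehhadh, Hsd17b4, Pex11a and Pxmp4 the circle of the knockout lies among the wild type points (for Acaa1b and Pex11a below them) and its square and triangle above; in Hacl1, Ephx2, Crat and Pex11g all knockout points lie above all wild type points.

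The auxiliary enzymes, which rearrange or reduce double bonds of unsaturated acyl-CoAs, were mixed. Pecr, the trans-2-enoyl-CoA reductase, had the smallest p of the 4. It was at 158, 132 and 134 FPKM in the knockout and 183, 149 and 150 in wild type, with replicate 1 highest in both genotypes (log2 fold change -0.18 with SE 0.13; adjusted p = 0.722 by limma). The dienoyl-CoA isomerase Ech1 stood at 261.5 ± 16.7 against 258 ± 40.02 FPKM and the enoyl-CoA isomerase Eci2 at 235 ± 12.3 against 233.5 ± 46.7. The dienoyl-CoA reductase Decr2 was at 64.9, 74.6 and 77.4 FPKM in the knockout and 66.9, 64.1 and 67.8 in wild type. As for Hsd17b4, its knockout replicate 1 lay within the wild type range and the other knockout libraries above it. Wild type replicate 1 was the highest of the 6 libraries for Ech1 (304 FPKM), Eci2 (286 FPKM) and Pecr.

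Alpha-oxidation removes 1 carbon from fatty acids such as phytanic acid, whose methyl branch blocks beta-oxidation. Its lyase gene, Hacl1 (chr14:31607226-31640965), which splits 2-hydroxyacyl-CoAs into formyl-CoA and a shortened aldehyde, had the lowest p of all 41 genes. It was at 83.8, 108 and 110 FPKM in the knockout against 42.7, 64.1 and 66.6 in wild type. Replicate 1 was the lowest of its group in both genotypes, and the groups did not overlap. The log2 fold change was 0.80 with SE 0.18 (adjusted p = 0.109 by limma), with means of 100.5 ± 14.5 and 57.8 ± 13.1 FPKM. A fit with the replicate number as a block used a pairing inferred from these data and not stated in the labels. In that fit Hacl1 rose (limma, adjusted p = 0.039) and was the single member that passed, where 0.722% of all genes did. Hacl1 also passed without knockout replicate 1 (limma, adjusted p = 0.043). An annotated neighbour, Gm49387, which is not a row of the table, overlaps 58.3% of Hacl1's exon bases, so part of the signal cannot be told apart from it. Btd, which lies head to head with Hacl1, was at 18.0, 23.9 and 23.7 FPKM in the knockout and 18.6, 18.8 and 17.1 in wild type.

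Phyh, the phytanoyl-CoA hydroxylase that acts just before Hacl1, was on the other side. It held 1335, 1227 and 1251 FPKM in the knockout against 1463, 1346 and 1350 in wild type, lower in every knockout library by a small margin (log2 fold change -0.13 with SE 0.12; adjusted p = 0.811 by limma). Amacr, the racemase that turns branched acyl-CoAs into the form the oxidases accept, was at 43.3 ± 6.10 against 43.4 ± 1.43 FPKM. The enzymes of alpha-oxidation were thus not all on the same side: Hacl1 was higher and the far more abundant Phyh lower in all knockout libraries.

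Ether lipid enzymes were low in this liver. Agps, which puts in the ether bond, was at 1.36, 1.46 and 1.68 FPKM in the knockout and 1.38, 2.22 and 2.07 in wild type (log2 fold change -0.20 with SE 0.17; adjusted p = 0.776 by limma). The groups overlapped through wild type replicate 1. Gnpat, the acyltransferase before it, stood at 10.8 ± 1.68 against 11.6 ± 0.91 FPKM. Far1, the reductase that supplies the fatty alcohol, was at 0.27 to 0.73 FPKM over the 6 samples and was not tested.

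Among the other matrix enzymes Ephx2 (chr14:66084372-66124522), the soluble epoxide hydrolase that opens fatty acid epoxides and is found in cytosol and peroxisomes, was higher in every knockout library. The knockout held 530, 571 and 566 FPKM and wild type 496, 459 and 441. The groups did not overlap, but the difference did not pass (log2 fold change 0.26 with SE 0.12; adjusted p = 0.505 by limma). The carbonyl reductase Dhrs4 stood at 100.3 ± 6.33 against 95.6 ± 5.62 FPKM, and the NADH pyrophosphatase Nudt12 at 16.0 ± 3.04 against 16.4 ± 3.44. The peroxisomal protease Lonp2 stood at 94.97 ± 6.70 against 107 ± 24.1 FPKM, where the wild type spread came from replicate 1 (135 FPKM against 91.5 and 95.04).

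The membrane proteins included Pxmp4, whose biochemical role is little known. It was at 37.5, 50.9 and 53.6 FPKM in the knockout and 37.3, 42.9 and 39.2 in wild type, so that knockout replicate 1 lay within the wild type range and the other 2 above it (log2 fold change 0.23 with SE 0.15; adjusted p = 0.681 by limma). The channel protein Pxmp2 stood at 85.0 ± 8.37 against 80.3 ± 17.1 FPKM. Slc25a17, the carrier for coenzyme A and other nucleotides, stood at 22.1 ± 3.95 against 22.0 ± 5.57.

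The Pex genes were described apart. Pex3, Pex16 and Pex19 bring proteins into the peroxisomal membrane. Of these Pex16 had the smallest p, with 34.3, 44.1 and 42.5 FPKM in the knockout and 38.8, 33.8 and 27.5 in wild type, overlapping through replicate 1 of both genotypes (log2 fold change 0.27 with SE 0.16; adjusted p = 0.629 by limma). Pex3 stood at 12.3 ± 0.64 against 12.0 ± 0.42 FPKM and Pex19 at 27.1 ± 2.82 against 24.1 ± 0.25.

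Import of matrix enzymes relies on the receptors Pex5 and Pex7 and on the docking proteins Pex13 and Pex14. Pex13 had the smallest p, with 12.3, 12.6 and 13.0 FPKM in the knockout and 13.9, 12.1 and 15.5 in wild type (log2 fold change -0.12 with SE 0.13; adjusted p = 0.861 by limma). The groups overlapped through wild type replicate 2. Pex5, the receptor for most matrix enzymes, stood at 25.3 ± 2.17 against 23.8 ± 2.15 FPKM. Pex7, the receptor for a few such as Phyh and the thiolases, stood at 29.4 ± 0.77 against 31.9 ± 3.53 FPKM. Pex14 stood at 20.5 ± 1.68 against 18.9 ± 0.93 FPKM; the annotated gene Gm17029, not a row of the table, overlaps 31.4% of its exon bases.

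Receptor recycling is done by the ubiquitin ligase subunits Pex2 and Pex10, the ATPase subunit Pex6 and its membrane anchor Pex26. Pex10 was at 3.54, 2.98 and 3.81 FPKM in the knockout and 1.78, 2.52 and 3.14 in wild type (log2 fold change 0.37 with SE 0.18; adjusted p = 0.553 by limma). The groups overlapped at low values. Pex6 had 18.0, 25.4 and 28.9 FPKM in the knockout and 28.2, 24.8 and 19.0 in wild type, a mirrored order with replicate 1 lowest in one genotype and highest in the other, and means of 24.1 and 24.0. Pex26 did likewise, at 5.80, 9.24 and 9.81 FPKM in the knockout and 8.97, 7.51 and 6.71 in wild type. Pex2 stood at 18.7 ± 1.73 against 19.3 ± 0.92 FPKM.

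Pex11a and Pex11g belong to the family that elongates and divides peroxisomes. Pex11g (chr8:3457105-3467648) was at 26.8, 24.7 and 21.03 FPKM in the knockout and 20.4, 16.9 and 16.1 in wild type. All knockout values were higher, with replicate 1 the highest of each group, and the difference did not pass (log2 fold change 0.42 with SE 0.14; adjusted p = 0.328 by limma). The annotated gene Gm44775, not a row of the table, overlaps 48.6% of its exon bases. Pex11a (chr7:79735957-79743131), the member long known to respond to PPARα, was at 46.8, 78.3 and 81.4 FPKM in the knockout and 48.6, 56.8 and 49.4 in wild type. As with Acaa1b, knockout replicate 1 lay below all wild type libraries and the other 2 above them all (log2 fold change 0.37 with SE 0.20; adjusted p = 0.589 by limma). The 2 Pex11 genes thus differed in which knockout library was highest.

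Among these genes the knockout libraries differed from one another. Knockout replicate 1 was the lowest knockout library in 29 of 39 tested members (74.4%), against 57.3% of all tested genes. Its value was 0.48 times the mean of knockout replicates 2 and 3 for Acaa1b, 0.586 times for Pex11a and 0.595 times for Ehhadh, while it was 1.17 times for Pex11g. Wild type replicate 1 was the highest wild type library in 24 members (61.5%), against 35% of all genes, and was 1.58 times the mean of the other wild type libraries for Acaa1a. The share with wild type replicate 1 highest was 10 of 13 among Pex genes and 14 of 26 among enzymes and carriers. As a mean deviation from each gene's 6-sample mean on the log2 scale, the enzymes and carriers stood at -0.11, 0.11 and 0.14 in the knockout and -0.024, -0.061 and -0.045 in wild type. The Pex genes stood at -0.078, 0.12 and 0.15 in the knockout and 0.014, -0.087 and -0.11 in wild type. All tested genes stood at -0.095, 0.015 and 0.049, and -0.022, 0.031 and 0.022. Both groups of members were therefore higher in knockout replicates 2 and 3 than in any wild type library. In knockout replicate 1 the enzymes and carriers (-0.11) were below all wild type libraries, and the Pex genes (-0.078) were within the wild type range. All tested genes were also lowest in that library (-0.095), so its low levels were not particular to the members.

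**Figure D3:**
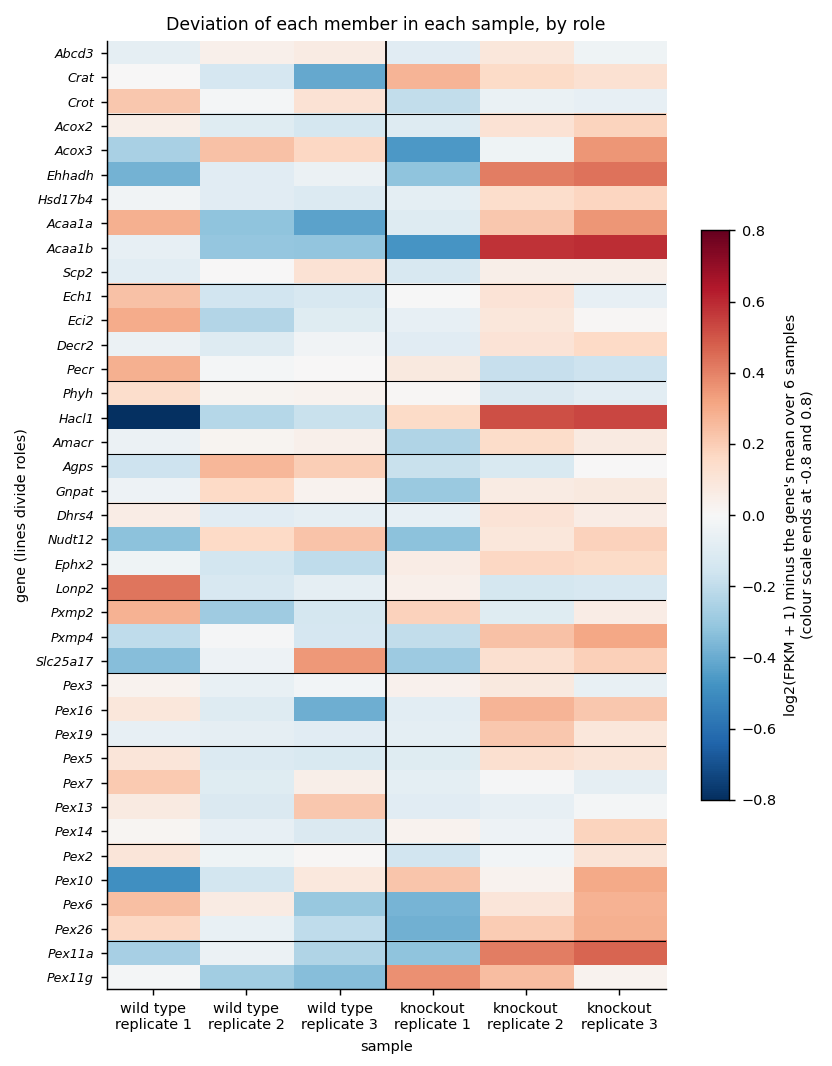
Each cell is the log2(FPKM + 1) of a tested peroxisome gene (rows, divided by role) in a library (columns) minus that gene's mean over the 6 libraries; the colour scale ends at -0.8 and 0.8. Knockout replicate 1 is blue for most rows of the beta-oxidation core, whose mean deviation there is -0.24, against 0.21 and 0.30 in knockout replicates 2 and 3.

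Other values moved with these libraries. Knockout replicate 1 also had the greatest estimated depth. The summed FPKM of 7 Kupffer cell and macrophage markers was 126, 84.4 and 64.3 in the knockout and 121, 135 and 137 in wild type, so that knockout replicates 2 and 3, where the members were highest, were lowest for these markers. All 7 were tested, 6 had a negative fold change, and none was called by limma (3 had an unadjusted p under 0.05). Their part in the results was not tested. In whole liver, fewer cells of a type and less RNA per cell cannot be told apart. Summed markers of sinusoidal endothelium overlapped between genotypes (57.4 to 80.3 FPKM in the knockout, 55.8 to 74.8 in wild type), while those of stellate cells did not (84.7 to 97.2 and 99.1 to 113.9 FPKM). Most of the stellate sum was Dcn (63.0 ± 1.04 against 73.8 ± 8.69 FPKM), and each other stellate marker overlapped between genotypes. Of the 6 stellate markers 4 were tested and none was called by limma. The part of both lists in the results was not tested either. Lymphocyte and neutrophil markers summed to 12.1, 4.97 and 2.30 FPKM in the knockout against 12.5, 4.04 and 5.40 in wild type. Red blood cell markers summed to 393, 303 and 196 FPKM in the knockout against 536, 232 and 290.1 in wild type. Both lists were highest in replicate 1 of each genotype, where many members were low in the knockout, and their part in the results was not tested. Of all marker genes tested, the erythroid enzyme gene Alas2 alone was called, lower in the knockout (9.43 ± 0.86 against 47.9 ± 3.30 FPKM; limma, adjusted p = 2.0e-05). Markers of adipose tissue summed to at most 0.19 FPKM and those of cholangiocytes to at most 1.96 FPKM.

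Without replicate 1 of both genotypes, a comparison of 2 libraries with 2 that was chosen because earlier results of these data had those libraries apart, 11 of 39 members rose and none fell. Over all 9693 genes tested in that comparison 6.79% rose and 4.68% fell. The 8 enzymes and carriers were Acaa1b (log2 fold change 0.89), Hacl1 (0.73), Acaa1a (0.66), Ehhadh (0.49), Ephx2 (0.34), Pxmp4 (0.34), Acox2 (0.26) and Hsd17b4 (0.25). The 3 Pex genes were Pex11a (0.58), Pex16 (0.49) and Pex11g (0.45). The smallest adjusted p-values were 2.4e-05 for Acaa1b, 3.3e-04 for Hacl1, 9.3e-04 for Acaa1a, 0.0016 for Ehhadh and 0.0036 for Pex11a (limma). The other 6 ran from 0.0067 for Ephx2 to 0.036 for Acox2. Of the 11, 5 belong to the core of beta-oxidation, and its remaining tested members, Acox3 and Scp2, did not pass. The median was 0.16 for enzymes and carriers and 0.23 for Pex genes, against -0.0092 for all genes. Leaving out knockout replicate 1 alone gave calls for Acaa1b (limma, adjusted p = 0.014), Hacl1 and Pex11a (limma, adjusted p = 0.040), where 1.09% of all genes rose; leaving out any other single library gave none. With all 6 libraries at equal weight none of the 11 passed. With limma's sample quality weights, which kept all 6 libraries but gave replicate 1 the lowest weights (0.37 in the knockout and 0.29 in wild type, against 1.10 to 2.86 in the others), 8 of the 11 and Crat rose and none fell. Over all genes 5.99% rose and 5.56% fell with these weights. Acox2, Hsd17b4 and Pxmp4 did not pass with them (limma, adjusted p = 0.117, 0.101 and 0.0859). For 10 of the 11 the call thus rests on leaving out or down-weighting replicate 1, and for Hacl1 also on the replicate block.

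**Figure D4:**
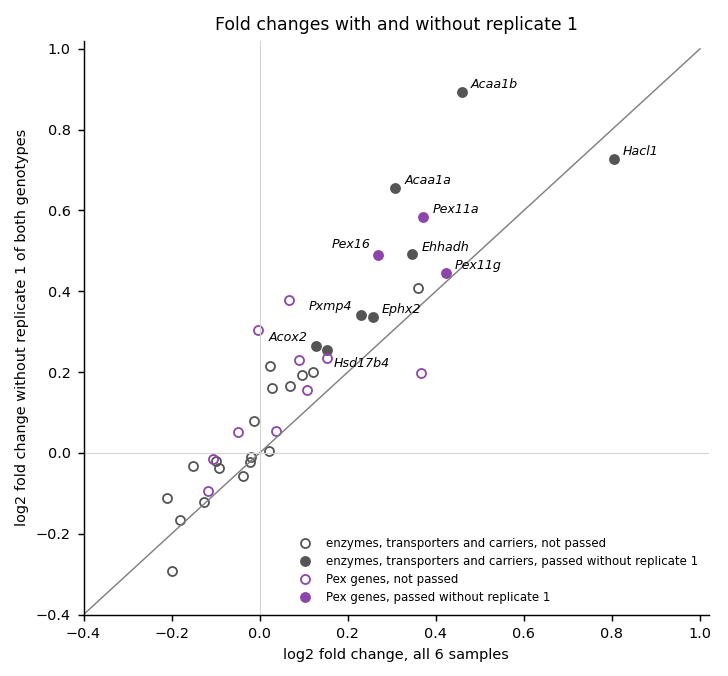
Log2 fold change (knockout minus wild type) of the 39 tested peroxisome genes with all 6 samples (x axis) and without replicate 1 of both genotypes (y axis); filled points passed limma's test in the latter, and the line marks equal values. Acaa1b lies at 0.46 and 0.89, whereas Hacl1 lies at 0.80 and 0.73, the one named point below the line.

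The rest of the peroxisome was taken from a list of 54 further genes, 51 of which were in the table and 47 tested. With all 6 samples 1 rose, 1 fell and 45 did not pass, with a positive fold change in 20 (42.6%) and a median of -0.07, against -0.028 for all genes. Nudt7, a peroxisomal hydrolase of coenzyme A (chr8:114133574-114154731), fell: it was at 131, 169 and 155 FPKM in the knockout and 275, 269 and 270 in wild type. Wild type libraries were close together and far above every knockout library (log2 fold change -0.84 with SE 0.13; adjusted p = 0.0157 by limma). The call was lost when knockout replicate 2 or 3 was left out (adjusted p = 0.070 and 0.089 by limma), and when wild type replicate 2 or 3 was (0.089 and 0.10). Acot3, an acyl-CoA thioesterase, rose, from 5.39, 3.59 and 4.36 FPKM in wild type to 11.3, 9.42 and 7.93 in the knockout (log2 fold change 0.95 with SE 0.18; adjusted p = 0.0448 by limma). It lost the call when knockout replicate 1, 2 or 3 was left out (adjusted p = 0.058, 0.24 and 0.084 by limma), and when wild type replicate 2 or 3 was (0.215 and 0.175). Acnat2, which conjugates fatty acids to taurine, was at 18.4, 13.7 and 13.4 FPKM in the knockout and 7.32, 9.36 and 9.54 in wild type, with no overlap (log2 fold change 0.73 with SE 0.16; adjusted p = 0.103 by limma). In these 3 genes, unlike Acaa1b or Pex11a, knockout replicate 1 lay on the same side of all wild type libraries as the other knockout libraries.

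Without replicate 1 of both genotypes, 7 of the 47 rose, among them Slc27a2, Acot3, Acot4, Acot8, Acnat2 and Aldh3a2, and 4 fell (Hao1, Nudt7, Idi1 and Mpv17l), where 6.79% of all genes rose and 4.68% fell. The named genes that rose act in fatty acid activation, acyl-CoA hydrolysis or conjugation, and aldehyde oxidation. Of the 4 that fell, Hao1 oxidizes glycolate and Idi1 acts in isoprenoid synthesis.

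Of 15 genes for PPARs, their partner receptors, coregulators and Hnf4a, 14 were tested and none passed by limma. Hnf4a alone had an unadjusted p under 0.05 (limma). The fold change was positive in 11 (78.6%, median 0.15), against 44.2% of all tested genes (median -0.028). Knockout replicate 1 was the lowest knockout library in 13 of the 14 (92.9%), against 57.3% of all tested genes. Hnf4a, a nuclear receptor of hepatocyte identity, had the smallest p, with 93.5, 98.2 and 100.02 FPKM in the knockout and 65.6, 87.4 and 80.4 in wild type (log2 fold change 0.33 with SE 0.13; adjusted p = 0.436 by limma). Lpin1, a phosphatidate phosphatase that also acts as a coactivator of PPARα, was at 68.0, 125 and 146 FPKM in the knockout and 54.0, 91.9 and 81.3 in wild type, lowest in replicate 1 of both genotypes (limma, adjusted p = 0.580). Without replicate 1 of both genotypes Lpin1 rose (log2 fold change 0.64; limma, adjusted p = 0.0033) and the other 13 did not pass, a share near the 6.79% of all genes that rose in that comparison. Rxrb, a partner receptor, stood at 9.62 ± 1.68 against 7.71 ± 0.82 FPKM (limma, adjusted p = 0.628). Ppara itself, named after its values were seen, was at 23.03, 40.03 and 43.4 FPKM in the knockout and 19.5, 40.4 and 38.3 in wild type. Both replicate 1 libraries were far below the other 4 for Ppara, whose group means hardly differed (35.5 ± 10.9 against 32.7 ± 11.5 FPKM; limma, adjusted p = 0.948).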

How the data were processed

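Liver RNA of 3 knockout and 3 wild type samples was sequenced from TruSeq libraries, per the labels' protocols. The submitters' processing notes name HISAT and mm10. Which quantifier and annotation were used, and whether strand was, remains not given in the sources used here. Values deposited by the authors are FPKM per gene, per the file headers; 0 per-sample columns were left unused. Positions and promoter windows come from RefSeq (GRCm38.p6, the assembly that mm10 names), and overlaps and shared words from GENCODE.

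FPKM holds no counts, so limma 3.58.1 (R 4.3.3; lmFit, eBayes with trend) was fitted on log2(FPKM + 1) for the 9968 genes that reached 1 FPKM in 3 or more of the 6 samples. This scale understates changes of low genes. P-values were adjusted by Benjamini-Hochberg over all of them, and calls made at 0.05. The code was tested on simulated data. Depth was estimated from steps in low values of transcripts of 450 to 1200 bases. For each sample the depth with the most values at whole multiples of the step, to within 0.15, was taken. At that depth 64.0% to 70.0% of 213 to 247 values per sample were such multiples. Chance gives 30% at a depth fixed in advance, and more at the best of many depths. No count test was run on the estimated depths.

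Replicate numbers come from the titles. Deviations from group means correlated at 0.30, 0.20 and 0.157 between same-numbered samples, each past 0.1; the pair of knockout replicate 3 and wild type replicate 2 reached 0.212. For replicates 2 and 3 the same-numbered samples thus did not correlate more than that pair. Deviations cancel out within each genotype, so the correlations depend on one another. That each was past 0.1 therefore does not show a pairing. The labels state no pairing, so it rests on these correlations from the same data alone. With these limits the numbers were taken as pairing, in a fit with the replicate number as a block.

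Members, lists, markers and alternatives were chosen with earlier results of these data known. Each member is named with its values; the values in each sample, fold change and test are given at least for each called member, for that with the smallest unadjusted p of each role, and for the 3 most abundant. In the other lists the called genes and the 3 with the smallest p are named. Protein features planned for the members were not analysed here. Some results on further peroxisome genes are not reported here.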

Additional observations from a re-analysis of the deposited data

How the results depend on the processing

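With all libraries kept at equal weight and no block, no member was called under a pseudocount of 0.1 or 0.5, either other filter, either rescaling or the fit without a trend. Enzymes and carriers called higher numbered 1 with the replicate block (Hacl1), 6 with sample quality weights, 8 without replicate 1 of both genotypes and 0 to 2 leaving out 1 library. Pex genes called higher numbered 3 with weights, 3 without replicate 1 of both and 0 to 1 leaving out 1 library. The median of enzymes and carriers was 0.148 with weights and 0.163 without replicate 1 of both; that of Pex genes was 0.2303 in the latter. The replicate block changed no other call.

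Of the further peroxisome genes, 0 rose with a pseudocount of 0.1, no filter, equal medians, quantile normalization or no trend, 5 with weights, 7 without replicate 1 of both and 0 to 1 leaving out 1 library. Those that fell numbered 0 with no filter, 4 with weights, 4 without replicate 1 of both and 0 to 2 leaving out 1 library. One regulator rose with weights and 1 without replicate 1 of both.

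Signs turned for members near 0. With equal medians the log2 fold changes were 0.0070 for Abcd3, 0.0076 for Scp2, 0.015 for Amacr and 0.025 for Pex6. Quantile normalization gave 0.0069 for Scp2, 0.016 for Amacr, 0.026 for Pex6, 0.0021 for Nudt12 and 0.0065 for Pex2. Weights gave 0.0019 for Abcd3, 0.070 for Amacr, 0.18 for Pex6, 0.0017 for Pex2 and -0.00034 for Slc25a17. Without replicate 1 of both they were 0.078 for Amacr, 0.30 for Pex6 and 0.051 for Pex2. Leaving out 1 library turned the sign of Abcd3 (-0.072 to 0.019), Scp2 (-0.068 to 0.038), Amacr (-0.090 to 0.10), Pex6 (-0.16 to 0.18), Nudt12 (-0.21 to 0.12), Pex2 (-0.11 to 0.016), Slc25a17 (-0.15 to 0.20), Acox3 (-0.29 to 0.12), Ech1 (-0.040 to 0.15), Eci2 (-0.089 to 0.18), Gnpat (-0.16 to 0.025), Lonp2 (-0.25 to 0.024), Pxmp2 (-0.022 to 0.26), Pex26 (-0.057 to 0.28) and Ppara (-0.19 to 0.41). The causes were not tested. At the estimated depths Far1, Abcd2 and Pex10 rest on few fragments, and Agps, low in FPKM but with 8490 exon bases, on more.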
